A study of Mus musculus with 21 samples.

Results

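Neuronal intermediate filaments are the ropes of protein that fill large axons, and their transcripts were followed in the mouse pons after the facial nerve was cut. The genes were taken by name from the count table: Nefl, Nefm and Nefh, which encode the light, medium and heavy neurofilament chains, Ina, which encodes alpha-internexin, and Prph, which encodes peripherin. These are 5 of 45664 gene rows, and all 5 passed the filter on low counts, which kept 22294 genes.

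The tissue was the ventral pons, the block of brainstem that holds the facial nucleus together with neighbouring reticular and trigeminal nuclei. All mice were C57BL/6 and carried the CX3CR1GFP/wt allele, in which a green fluorescent protein replaces 1 copy of a microglial receptor gene, so no group was free of it. Surgery at an age of 8 weeks severed the right facial nerve where it leaves the skull. Each of 7 groups had 3 libraries: the lesion (right) and contralateral (left) pons at day 7 (mice aged 9 weeks), day 14 (10 weeks) and day 30 (12 weeks), and the left pons of unoperated mice at day 0 (8 weeks). All lesion tissue was thus from the right and all other tissue from the left, and lesion and side cannot be told apart.

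Neurofilament chains copolymerise: the light chain forms the core, and the medium and heavy chains add long side arms that are phosphorylated in the axon. Alpha-internexin joins them in central neurons, and peripherin is the filament of neurons whose axons leave the brain and cord, such as motor and sensory neurons. These filaments set the calibre of myelinated axons, and their synthesis is known to shift when a motor axon is cut and regrows. The facial motor neurons are only part of the block, and in bulk tissue fewer cells of a type and less RNA per cell cannot be told apart.

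Total counts were between 35874913 and 41448945 in the day 0 libraries and between 17358868 and 29827291 in the others. The lowest raw count of any of the 5 genes in any library was 1639, for Prph. The lesion labels were checked with 2 axotomy response genes, the transcription factor gene Atf3 and Sprr1a. Atf3 averaged 82.6 ± 12 CPM (reads of a gene relative to the scaled library total) in the day 7 lesion pons, 71.8 ± 9.8 at day 14 and 18.8 ± 7.6 at day 30, against at most 1.86 CPM in any contralateral or day 0 library (SD, n = 3 per group). Sprr1a was at 35.1 CPM or more in every lesion library, against at most 1.06 CPM in any contralateral or day 0 library. Day 14 lesion replicate 2 stood apart: 2.81% of its counts were mitochondrial, the lowest share of the 21 libraries, and the 5 filament genes summed to 6004 CPM, the highest. In the count table the side letters of the day 30 columns are opposite to the labels. The side of each was taken from the descriptions of the samples, and day 30 directions depend on this. With this assignment Sprr1a was at 35.1 to 82.0 CPM in the day 30 lesion libraries and at 0.188 to 1.06 CPM in the contralateral ones. The deposited log2 matrix, whose day 30 side letters match the labels, was also reproduced with it.

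On the lesion side the filament genes did not move as 1 group. Nefl, the light chain gene, was lower than on the contralateral side by a small amount that was nearly equal at all 3 days. Prph was 1.78-fold higher at day 14, a call that passed, and 1.57-fold higher at day 7, which did not pass; at day 30 its sides overlapped. Nefm, Nefh and Ina passed the test on no day.

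**Figure D1:**
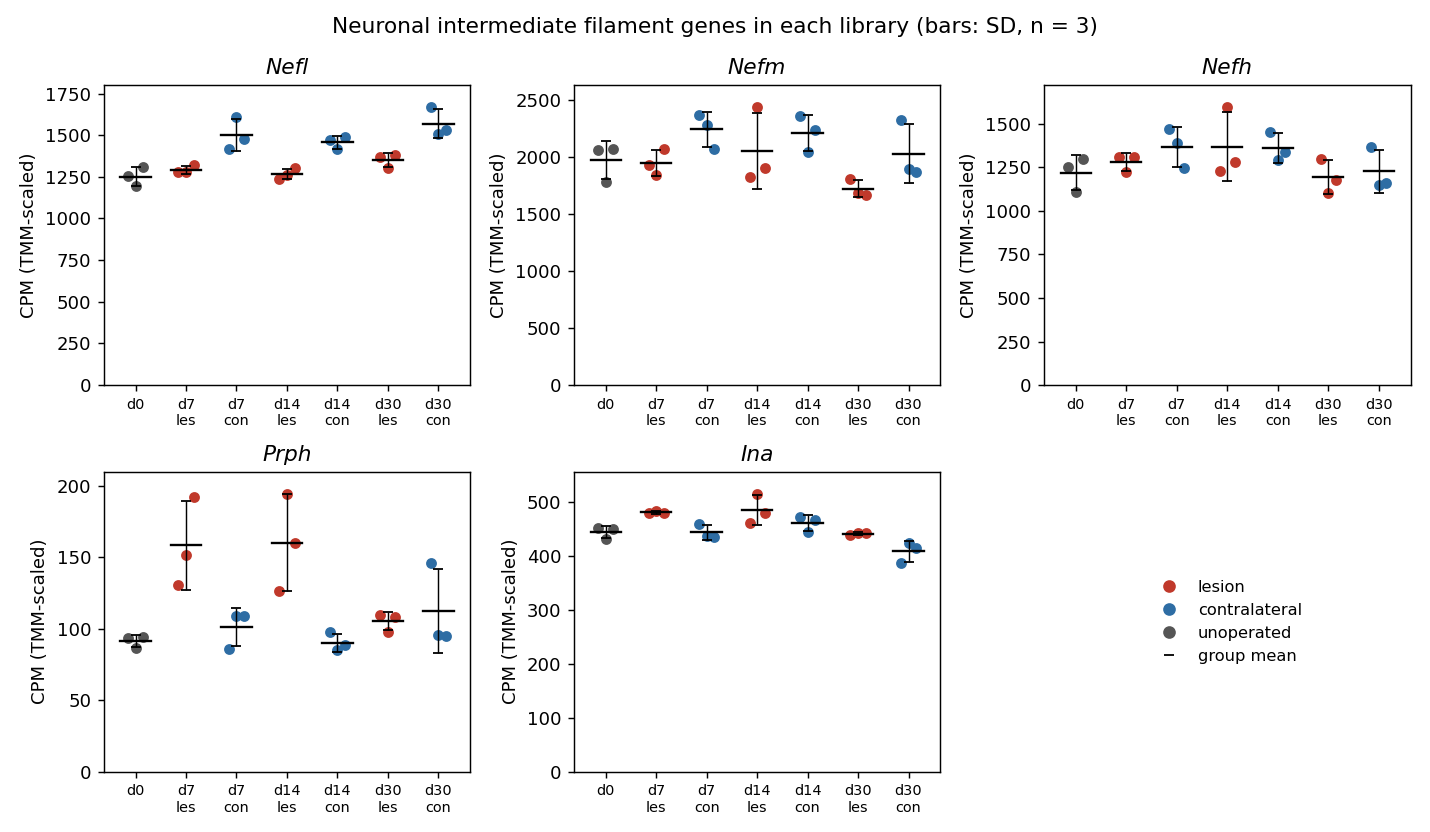
Level of each filament gene (vertical axes, CPM scaled by TMM, starting at 0) in each of the 21 libraries, by group (horizontal axes: d is day, les lesion, con contralateral); points are libraries, long bars group means and whiskers the SD of 3 libraries. The lesion points of Nefl lie between 1239 and 1381 CPM and below the contralateral points of their day, and the Prph points of the day 7 and day 14 lesion pons lie between 127 and 194 CPM.

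Nefl is encoded on chromosome 14 (GRCm38, 68083863 to 68089095, forward strand). At day 7 it stood at 1277, 1281 and 1319 CPM in the lesion pons, against 1419, 1608 and 1475 CPM in the contralateral pons. At day 14 the lesion libraries had 1239, 1264 and 1300 CPM, against 1471, 1415 and 1489 CPM in the contralateral ones. At day 30 the values were 1371, 1305 and 1381 CPM in the lesion pons, against 1669, 1509 and 1530 CPM in the contralateral pons. On every day all lesion libraries lay below all contralateral libraries. The log2 difference, lesion minus contralateral, was -0.22 ± 0.06 at day 7 (SE, adjusted p = 0.0418) and -0.20 ± 0.06 at day 14 (adjusted p = 0.0392). At day 30 it was -0.21 ± 0.06 and did not pass (adjusted p = 0.0572). Averaged over the 3 days it was -0.21 ± 0.03, a level 0.864 times that of the contralateral side (adjusted p = 4.44e-05).

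The daily calls of Nefl sat close to the threshold. At day 7 the call was lost, at adjusted p between 0.0646 and 0.34, without any one of the lesion libraries, contralateral replicate 2 or contralateral replicate 3. At day 14 it was lost without any one of the 6 libraries, at adjusted p between 0.0549 and 0.126. At day 30, where the main test did not pass, 5 of 15 alternatives passed, and none of these left out a library. The adjusted p of the 15 lay between 0.0036 and 0.391. The mean over the 3 days passed in 27 of 27 alternatives, with log2 differences between -0.22 and -0.19.

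Nefl lies wholly within the annotated span of Nefm. It shares 1108 exon bases (chromosome 14, 68083863 to 68084970) with Nefm on the opposite strand, which is 32.8% of the exon bases of Nefl and 19.2% of those of Nefm. The shared stretch lies in the last exon of the longer Nefm transcript, Nefm-202. The kit keeps the strand, but the strand setting used in counting is not given in the sources used here, so reads from this stretch may have been credited to either gene or to neither, and the levels of both genes are uncertain to that extent.

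Nefm, the medium chain gene, has the reverse strand of the same region (chromosome 14, 68082590 to 68124846). It stood at 1924, 1839 and 2068 CPM in the day 7 lesion pons, against 2368, 2282 and 2071 CPM in the contralateral pons. At day 14 it was at 1822, 2434 and 1904 CPM in lesion libraries, against 2355, 2041 and 2233 CPM in contralateral ones, and at day 30 at 1804, 1683 and 1668 CPM in lesion libraries, against 2323, 1889 and 1868 CPM in contralateral ones. The sides were separate at days 7 and 30, each time by a narrow gap, and overlapped at day 14, when lesion replicate 2 was the highest library of all 21. The log2 differences were -0.20 ± 0.10 at day 7, -0.11 ± 0.10 at day 14 and -0.24 ± 0.10 at day 30 (SE, adjusted p = 0.692, 0.624 and 0.532). The mean over the 3 days was -0.18 ± 0.06 (adjusted p = 0.0814). Without day 14 lesion replicate 2 that mean was -0.23 and passed the test, as it did by DESeq2.

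Nefh, the heavy chain gene (chromosome 11, 4938754 to 4948064, reverse strand), overlapped between the sides on every day. Its group means were 1282 ± 50 CPM in the lesion pons and 1369 ± 114 CPM in the contralateral pons at day 7, 1370 ± 198 CPM in the lesion pons and 1361 ± 84 CPM in the contralateral pons at day 14, and 1194 ± 98 CPM in the lesion pons and 1227 ± 123 CPM in the contralateral pons at day 30 (SD, n = 3 each). The mean log2 difference over the 3 days was -0.04 ± 0.05 (SE, adjusted p = 0.852). The day 14 difference, 0.01 ± 0.09, was -0.12 without lesion replicate 2, whose 1596 CPM of Nefh was the highest value of that gene in any library.

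Ina (chromosome 19, 47014698 to 47025327, forward strand) ranged from 387 to 515 CPM over the 21 libraries. It stood at 480, 483 and 479 CPM in the day 7 lesion pons, against 460, 437 and 436 CPM in the contralateral pons, and at 462, 515 and 479 CPM in the day 14 lesion pons, against 473, 445 and 467 CPM in the contralateral pons. At day 30 it was at 439, 443 and 443 CPM in the lesion pons, against 387, 424 and 415 CPM in the contralateral pons. The lesion libraries were all above the contralateral ones at days 7 and 30 and overlapped them at day 14. Log2 differences were 0.11 ± 0.05, 0.07 ± 0.05 and 0.11 ± 0.05 at days 7, 14 and 30 (SE, adjusted p = 0.597, 0.481 and 0.606). The mean over the 3 days was 0.10 ± 0.03 (adjusted p = 0.0513) and passed the threshold in 8 of 27 alternatives, among them DESeq2 and limma-voom. At its start Ina shares 456 exon bases (14.1%) with Nt5c2 on the opposite strand.

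Prph lies on chromosome 15 (99055174 to 99058978, forward strand), and its annotated exons overlap those of no other gene. At day 7 it stood at 131, 152 and 192 CPM in the lesion pons, against 85.6, 109 and 109 CPM in the contralateral pons. At day 14 it stood at 127, 194 and 160 CPM in the lesion pons, against 97.5, 85.1 and 88.4 CPM in the contralateral pons. At day 30 it was at 110, 98.1 and 109 CPM in the lesion pons, against 146, 95.9 and 94.9 CPM in the contralateral pons. The sides were separate at days 7 and 14, and the lesion libraries differed more among themselves than the contralateral ones did. At day 30 they overlapped, with contralateral replicate 1 far above the other libraries of both sides.

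The log2 difference of Prph was 0.65 ± 0.18 at day 7 (SE, 1.57-fold, adjusted p = 0.142; by DESeq2 0.0301), 0.83 ± 0.19 at day 14 (1.78-fold, adjusted p = 0.0213) and -0.09 ± 0.18 at day 30 (adjusted p = 0.953). The mean over the 3 days was 0.46 ± 0.11 (adjusted p = 0.0179), a call lost with the replicate number as a block (adjusted p = 0.0569). The day 14 call was lost without lesion replicate 2 (log2 0.67, adjusted p = 0.132), lesion replicate 3 (0.0515), contralateral replicate 2 (0.0962) or contralateral replicate 3 (0.0775). Without contralateral replicate 1 the day 30 difference was 0.14, and it did not pass there either.

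The bases before the start site are shown for Prph, the gene that rose, and for Ina, the filament gene nearest to it in direction. They are the 250 bases before the RefSeq start in GRCm38.p6, both on the forward strand, written 5′ to 3′ (Prph at chr15:99054924-99055173, Ina at chr19:47014431-47014680). Capitals mark matches, on either strand, to any of 4 motifs. These were the TATA box (letters TATAAA), the AP-1 site (letters TGANTCA), the cyclic AMP response element (letters TGACGTCA) and the SP1 site (letters GGGCGG, or CCGCCC when on the other strand), and no match overlapped another. RefSeq promoters were matched for 2 of the 5 genes.
Prph: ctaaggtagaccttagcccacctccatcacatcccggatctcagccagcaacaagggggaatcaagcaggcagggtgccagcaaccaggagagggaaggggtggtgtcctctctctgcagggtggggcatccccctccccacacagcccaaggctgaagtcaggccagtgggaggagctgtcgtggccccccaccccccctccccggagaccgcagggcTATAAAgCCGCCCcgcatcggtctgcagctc
Ina: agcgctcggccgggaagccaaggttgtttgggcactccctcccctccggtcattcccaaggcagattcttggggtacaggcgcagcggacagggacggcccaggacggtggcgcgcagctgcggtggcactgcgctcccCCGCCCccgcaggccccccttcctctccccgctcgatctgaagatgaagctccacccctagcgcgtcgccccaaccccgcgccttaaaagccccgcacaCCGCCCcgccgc
Prph has a TATA box match beginning 31 bases before the start and an SP1 match beginning 24 bases before it, and Ina has SP1 matches beginning 111 and 12 bases before its start. Of 32851 mouse promoters of the same length, 12.4% hold the TATA box letters, 32.7% the SP1 letters, 6.75% the AP-1 letters and 1.55% the cyclic AMP response element letters. The letters of the last 2 motifs were not in either window.

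Counted over the 5 genes, 0 were called higher on the lesion side at day 7, where 1.56% of all genes tested were, and 1 was called lower (Nefl), where 0.0942% of all genes were. The 2 sides did not overlap for 4 of the 5 genes, against 12.5% of all genes. At day 14, 1 of 5 was higher (Prph; 2.58% of all genes), 1 was lower (Nefl; 1.31%), and 2 did not overlap (21.2%). At day 30, 0 were higher (1.04%) and 0 were lower (0.121%) by edgeR, although 3 of the 5 had an unadjusted p under 0.05 and DESeq2 and limma-voom each called 1, Nefl. The sides did not overlap for 3 of 5 genes at day 30, against 18% of all genes. For the mean over the 3 days 1 was higher (Prph; 3.84% of all genes) and 1 lower (Nefl; 0.848%). The median log2 difference of the 5 over the 3 days was -0.04, beside 0.00 for all genes tested.

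**Figure D2:**
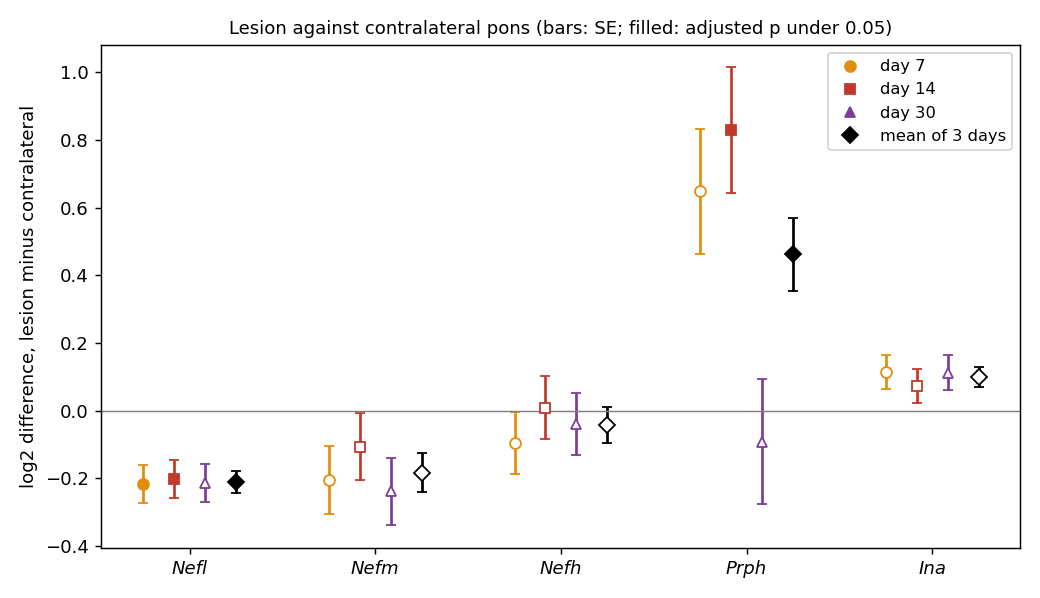
Log2 difference, lesion minus contralateral (vertical axis), of the 5 filament genes (horizontal axis) at day 7, day 14, day 30 and as the mean of the 3 days; whiskers are the SE, and filled symbols passed an adjusted p of 0.05. Nefl lies near -0.21 throughout, and Prph stands at 0.65 and 0.83 at days 7 and 14 and at -0.09 at day 30.

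The change of the lesion effect with time was tested as the difference between days of lesion minus contralateral. For Prph it was 0.18 ± 0.26 at day 14 relative to day 7 (SE, adjusted p = 0.925), -0.74 ± 0.26 at day 30 relative to day 7 (unadjusted p = 0.0128, adjusted p = 0.999) and -0.92 ± 0.26 at day 30 relative to day 14 (unadjusted p = 0.00318, adjusted p = 0.167). The smaller gap at day 30 did not pass by edgeR. It passed by DESeq2 (adjusted p = 0.0363) and without day 14 lesion replicate 1 (0.0365). By edgeR 0 of the 5 genes were called for any pair of days, with 0, 1 and 1 at an unadjusted p under 0.05. Of all genes 0% were called for day 14 against day 7, 0.0269% for day 30 against day 7 and 0.0807% for day 30 against day 14. The 0 genes for day 14 against day 7 compare with 1320 at an unadjusted p under 0.05 and with 1 called by DESeq2.

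Set against the unoperated pons, Nefl was called on the contralateral side and Prph on the lesion side. Nefl had 1415 to 1669 CPM in the contralateral libraries, all of them above the 1253, 1193 and 1309 CPM of the day 0 libraries. Its lesion libraries overlapped the day 0 range on every day. The log2 difference of lesion from day 0 was 0.05 ± 0.06, 0.02 ± 0.06 and 0.11 ± 0.06 at days 7, 14 and 30 (SE, adjusted p = 0.668, 0.868 and 0.159). That of contralateral from day 0 was 0.26 ± 0.06 at day 7 (adjusted p = 0.00196), 0.22 ± 0.06 at day 14 (0.00667) and 0.33 ± 0.06 at day 30 (0.000124), and it passed in 14 of 14 alternatives on each day. These comparisons share the day 0 libraries, and the contralateral libraries are also those that Nefl in the lesion pons was set against.

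The lesion libraries of Prph at days 7 and 14, from 127 to 194 CPM, were all above its 93.8, 86.9 and 94.6 CPM in the day 0 libraries, by log2 0.79 ± 0.18 (SE, 1.73-fold, adjusted p = 0.00961) and 0.81 ± 0.18 (1.75-fold, adjusted p = 0.00656), and both calls held in 14 of 14 alternatives. At day 30 the difference of lesion from day 0 was 0.20 ± 0.18 (adjusted p = 0.49). On the contralateral side Prph differed from day 0 by 0.14 ± 0.18, -0.02 ± 0.18 and 0.29 ± 0.18 at days 7, 14 and 30 (adjusted p = 0.724, 0.96 and 0.331), and the last value rests on contralateral replicate 1, without which it was 0.06.

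Ina in the lesion pons was 0.11 ± 0.05 above day 0 at day 7, 0.13 ± 0.05 above it at day 14 and at -0.01 ± 0.05 at day 30 (SE, adjusted p = 0.164, 0.0908 and 0.926). In the contralateral pons it was at 0.00 ± 0.05, 0.05 ± 0.05 and -0.12 ± 0.05 (adjusted p = 0.994, 0.531 and 0.115). Nefm and Nefh were called against day 0 on neither side.

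**Figure D3:**
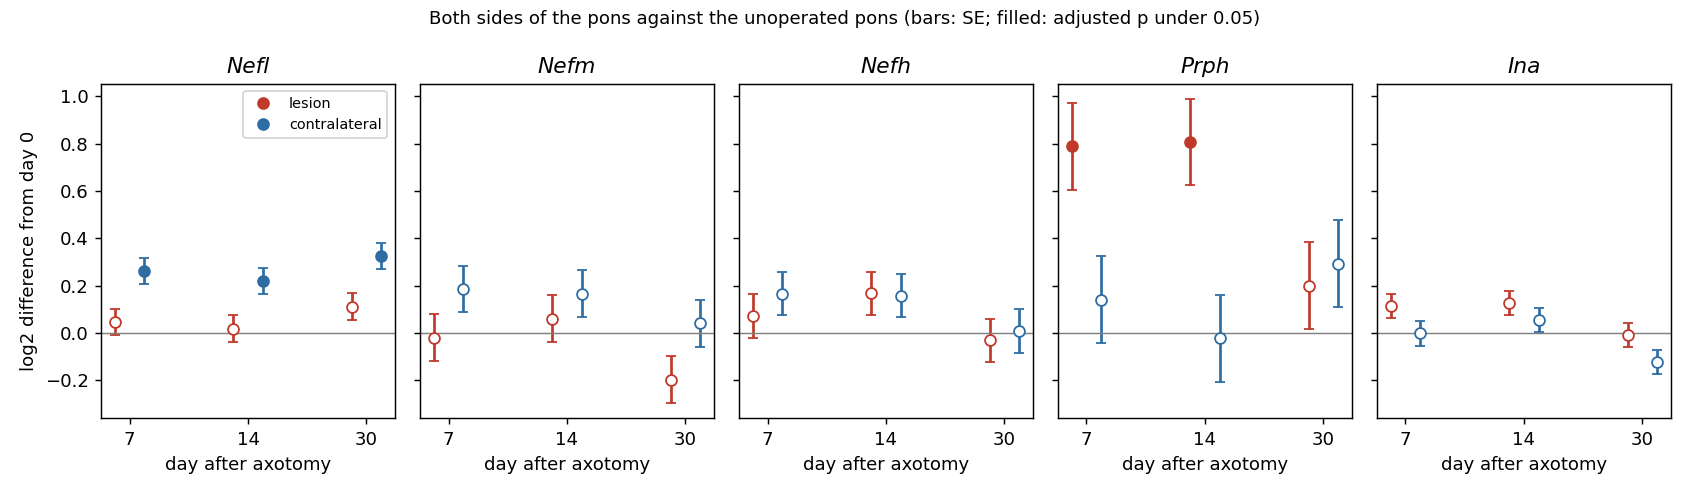
Log2 difference from the unoperated day 0 pons (vertical axis) of each filament gene on the lesion side (red) and the contralateral side (blue) against the day after axotomy (horizontal axis, days evenly spaced); whiskers are the SE, and filled symbols passed an adjusted p of 0.05. Contralateral Nefl is filled on all 3 days, at 0.22 to 0.33, and lesion Prph is filled at days 7 and 14, at 0.79 and 0.81.

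In counts, lesion against day 0 had 1 of 5 genes called at day 7 and 1 at day 14 (Prph both times) and 0 at day 30, where 12.5%, 16.8% and 22.4% of all genes were called in either direction. At day 30, 0 of the 5 had an unadjusted p under 0.05, and DESeq2 called 0. Contralateral against day 0 had 1 of 5 called on each day (Nefl), where 10.5%, 15.8% and 16.1% of all genes were. Age rises with the day. The column names give lane 1 for days 7 and 0, lane 2 for day 14 and lane 3 for day 30, but 2 of the day 7 libraries have the same index as day 0 libraries, which cannot be so within 1 physical lane. Time, age and sequencing run or lane cannot be told apart in any comparison with day 0, whereas both sides of a day have the same lane number.

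Markers of other cells also moved against day 0. Of the 7 oligodendrocyte markers, 5, 5 and 4 were lower at days 7, 14 and 30 in the lesion pons and 3, 5 and 4 in the contralateral pons, with none higher. Their summed level was 26398 to 29258 CPM in the day 7 lesion pons and 26598 to 30333 CPM in the day 7 contralateral pons, against 32089 to 34221 CPM at day 0. Of the 6 endothelial and mural markers, 1 was higher and 3 lower on both sides on every day. Of the 6 choroid plexus markers, 3 were higher in the day 7 lesion pons by edgeR and 5 by DESeq2 (median log2 4.48). Neither called any on the other days or in the contralateral pons. By edgeR, 1 of the 7 Schwann cell and cerebellum markers was higher in the lesion pons on every day, and 2 were lower at day 14. In the contralateral pons 1 was higher at day 7. Of the 7 astrocyte markers, 1 was higher in the lesion pons on every day by edgeR. Of the 12 pan-neuronal markers, 3 were higher at day 7 on each side, 3 were higher and 1 lower in the day 14 lesion pons, 4 were higher in the day 14 contralateral pons, and 3 were higher and 2 lower on each side at day 30. Of the 8 microglia markers, 7 were higher in the lesion pons on every day, whereas in the contralateral pons 0 were called at day 7 by edgeR or DESeq2 (3 at an unadjusted p under 0.05), 2 were lower at day 14 and 1 was higher at day 30. The mitochondrial share of counts was 3.94% to 4.45% in the contralateral pons at day 7, 4.48% to 4.76% at day 14 and 6.31% to 7.29% at day 30, against 3.05% to 3.60% at day 0. Of the 12 motor neuron markers, 4, 6 and 3 were lower in the lesion pons at days 7, 14 and 30. Another 1, 0 and 1 were higher. By edgeR, 0, 1 and 0 were lower and 0, 0 and 1 higher in the contralateral pons, with log2 medians 0.17, 0.26 and 0.41. Of the 12 genes of neurons with large myelinated axons, 1, 4 and 1 were higher in the contralateral pons (medians 0.06, 0.18 and -0.04). The lesion pons had 1 higher each day and the day 30 contralateral pons 1 lower. The part of these markers and shares in the differences of Nefl and Prph from day 0 was not tested.

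Levels of different genes were compared per kilobase of exon. At day 0 Nefl was at 370 ± 17 CPM per kilobase, Nefm at 341 ± 29 and Nefh at 305 ± 25, whose libraries were close to one another, followed by Ina at 137 ± 3.6 and Prph at 49.2 ± 2.3 (SD, n = 3). The order of the top of this list depends on the lengths used. With exon bases not shared with Nefm, Nefl would be at 551 CPM per kilobase, and with the length of the shorter transcript Nefm-201, Nefm would be at 591.

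**Figure D4:**
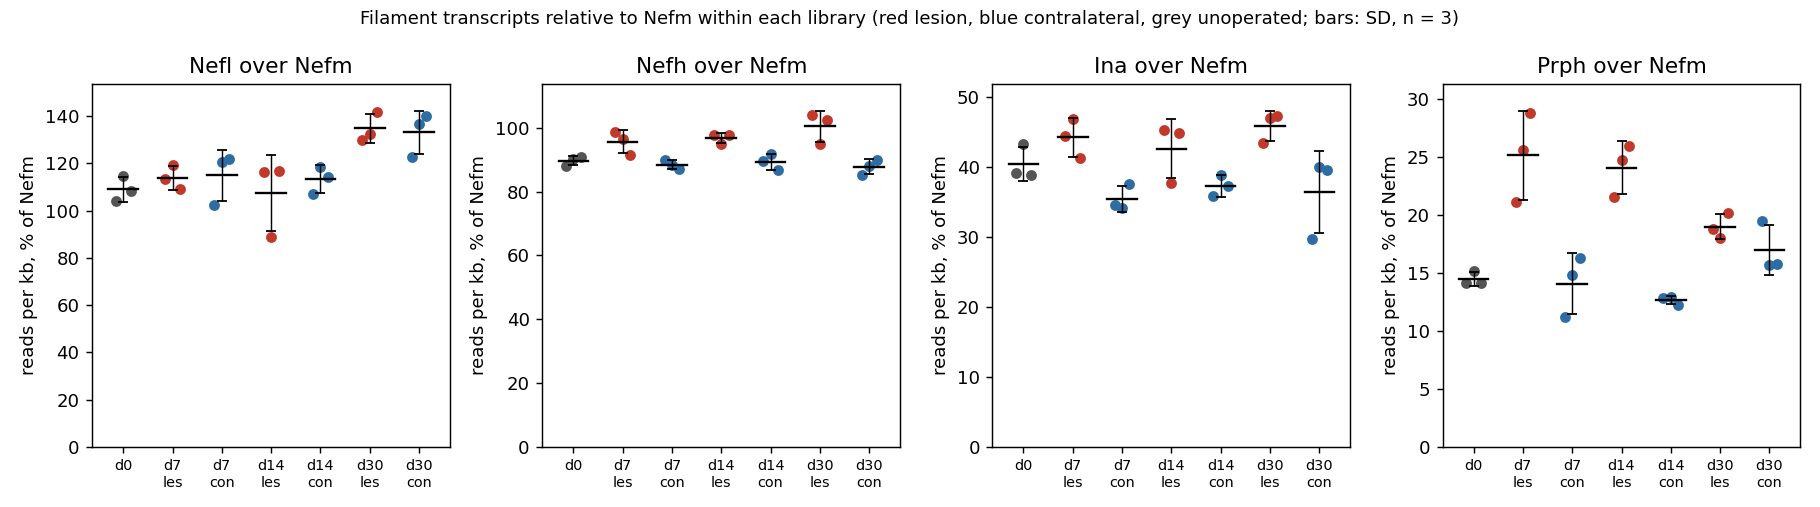
Level of Nefl, Nefh, Ina and Prph per kilobase as a percentage of the level of Nefm in the same library (vertical axes, starting at 0), by group (horizontal axes: d is day, les lesion, con contralateral); points are libraries, bars the mean and SD of 3. Lesion points of Nefh over Nefm lie above the contralateral points of their day on all 3 days, and those of Prph over Nefm reach 28.8% at day 7.

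Ratios within a library do not depend on the scaling between libraries, and they are given as a description. Their level depends on the length used: with Nefm-201 every ratio to Nefm would be 1.73 times lower, in all groups alike. Nefh was at 91.6% to 98.8% of Nefm per kilobase in the day 7 lesion pons, against 87.0% to 89.8% in the contralateral pons. At day 14 the ranges were 94.9% to 97.7% in lesion libraries and 86.6% to 91.7% in contralateral ones, and at day 30 they were 94.9% to 104% in lesion libraries and 85.3% to 90.0% in contralateral ones. The day 0 libraries had 88.0% to 90.8%. The heavy chain gene was therefore higher relative to the medium chain gene in 9 of 9 lesion libraries than in any contralateral library of the same day, and the day 14 lesion library that stood apart was no exception.

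Prph was at 25.2% ± 3.9 of Nefm in the day 7 lesion pons, against 14.1% ± 2.6 in the contralateral pons, and at 24.1% ± 2.3 in the day 14 lesion pons, against 12.7% ± 0.35 in the contralateral pons (SD, n = 3 each). At day 30 it was at 19.0% ± 1.1 in the lesion pons, against 17.0% ± 2.2 in the contralateral pons, and the day 0 value was 14.5% ± 0.58. Ina was at 44.3% ± 2.8 of Nefm in the day 7 lesion pons, against 35.5% ± 1.8 in the contralateral pons, and at 45.9% ± 2.2 in the day 30 lesion pons, against 36.5% ± 5.8 in the contralateral pons. At day 14 its sides overlapped, since the lesion library that stood apart had 37.8%. Nefl relative to Nefm was at 135% ± 6.1 in the lesion pons and 133% ± 9.1 in the contralateral pons at day 30, and at 109% ± 5.4 at day 0. This ratio was thus higher at day 30 than at day 0 on both sides, and its sides overlapped. The bases that Nefm shares with Nefl enter all 4 ratios, and their part in them was not tested.

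Nefm and Nefh varied together. Across the 21 libraries the Pearson correlation of their log2 CPM was 0.88, and it was 0.95 after group means were removed. The next highest pair within groups was Nefm with Prph at 0.69. Nefl and Ina were at -0.59 across the 21 libraries and at -0.20 within groups. All these values share the libraries, their depth and the 7 groups, and they describe these libraries only.

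The same measure was taken between each filament gene and 13537 genes of at least 1 CPM. The genes most like Nefl were Pdgfd (0.89), Tapt1 (0.88), Mro (0.86), Mum1l1 (0.86) and Isl1 (0.85), the last a transcription factor gene of motor neurons. Most like Prph were Fxyd7 (0.91), Serpinb6a (0.91), Lgals1 (0.91), Cyb5r3 (0.88) and Stmn2 (0.87). For Nefm they were Nefh, Ttc39a (0.82), Ccdc65 (0.78), Plekhd1 (0.77) and Syt3 (0.77), and for Nefh they were Nefm, Ncapd2 (0.76), Cep120 (0.76) and Ccdc65 (0.74). For Ina they were Clmp (0.88), Vav2 (0.85), Supt5 (0.84), Galnt9 (0.83) and Syt12 (0.83). After group means were removed, the named genes had lower values, 0.40 to 0.76 with Nefl, 0.54 to 0.87 with Prph and 0.38 to 0.73 with Ina. Leaving aside the pair of Nefm and Nefh, they had 0.55 to 0.76 with Nefm and 0.66 to 0.72 with Nefh.

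Of 30 partners of neurofilaments (linkers, motors, kinases, turnover and RNA-binding genes), 2 were higher and 0 lower in lesion than contralateral pons at day 7, and likewise 2 and 0 at day 14, where 1.56% and 2.58% of all genes were higher. For the mean over the 3 days, 4 were higher and 0 lower. The small heat shock protein gene Hspb1 was up by log2 1.00 ± 0.14 at day 7 and 0.85 ± 0.13 at day 14 (SE, adjusted p = 2.91e-05 and 0.000187). Mapk3, the gene of a kinase that phosphorylates neurofilaments, was up by 0.36 ± 0.07 at day 14 (adjusted p = 0.00237). At day 30, 0 of the 30 were called by edgeR or DESeq2, with 6 at an unadjusted p under 0.05. The medians of the list were 0.01, -0.06 and 0.02 at days 7, 14 and 30, beside -0.01, 0.00 and 0.00 for all genes.

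Among 13 other intermediate filament genes, 1 was called at day 14, the nuclear lamin gene Lmna (0.33 ± 0.09, SE, adjusted p = 0.0392). At days 7 and 30, 0 were called by edgeR or DESeq2, with 3 and 2 at an unadjusted p under 0.05. Gfap, the astrocyte filament gene, was at 909 ± 40 CPM in the day 14 lesion pons and at 657 ± 48 CPM in the contralateral pons (SD, n = 3 each, log2 0.47 ± 0.16, adjusted p = 0.129). At day 0 Gfap was at 1000 ± 180 CPM. Its lesion means were 930, 909 and 1000 CPM at days 7, 14 and 30, and its contralateral means 795, 657 and 758 CPM. For the mean over the 3 days 2 of the 13 were higher, Lmna and Gfap (0.36 ± 0.09, adjusted p = 0.0347).

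The axonal microtubule genes, the other cytoskeleton of the axon, held larger differences. Of 18, 7 were higher and 0 lower at day 7, 7 were higher and 1 lower at day 14, and 1 was higher at day 30. The beta tubulin gene Tubb6 was up by log2 1.75 ± 0.10 at day 14 (SE, adjusted p = 2.81e-12) and by 1.11 ± 0.10 at day 30 (adjusted p = 9.46e-08). At day 14 Tubb2b was up by 0.97 ± 0.08 (adjusted p = 1.63e-08), and Stmn2, which destabilises microtubules in growing axons, by 0.67 ± 0.06 (adjusted p = 8.14e-08). The gene that fell, named after its value was seen, was Map2 of the dendritic microtubules (-0.32 ± 0.09, adjusted p = 0.0444). The list medians were 0.10, 0.28 and 0.02 at days 7, 14 and 30.

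Markers of the cells that the block can hold were read beside these results. Of 12 motor neuron markers, 0 were higher and 2 lower at day 7 (Mmp9 and Chodl), 0 were higher and 6 lower at day 14, and 1 was higher (Calca, a neuropeptide gene) and 4 lower at day 30. Chodl and Calca were named after their values were seen, as was Gfap among the filament genes of other cells. Chat, the gene of acetylcholine synthesis, was at 12.8 ± 2.5 CPM in the day 14 lesion pons and at 37.3 ± 2.2 CPM in the contralateral pons (SD, n = 3 each, log2 -1.54 ± 0.22 SE, adjusted p = 0.000619). Mmp9 fell by 0.92 ± 0.15 and Slc5a7, the choline transporter gene, by 1.66 ± 0.30 on the log2 scale (adjusted p = 0.000313 and 0.00481). The summed level of the 12 was 411 to 513 CPM in the day 7 lesion pons and 519 to 598 CPM in the contralateral pons. At day 14 it was 394 to 424 CPM in the lesion pons and 564 to 637 CPM in the contralateral pons, and at day 30 it was 463 to 587 CPM in the lesion pons and 566 to 732 CPM in the contralateral pons. Its part in the difference of Nefl was not tested.

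The 12 pan-neuronal markers gave few calls. Their summed level overlapped between the sides on every day, with 10867 to 11639 CPM in the day 14 lesion pons and 11180 to 11798 CPM in the contralateral pons. Of them 0 were called on any day by edgeR, with 1, 3 and 0 at an unadjusted p under 0.05 at days 7, 14 and 30, and DESeq2 called 2 at day 14. Of 12 genes of neurons with large myelinated axons, 1 was called, Vamp1 of the synaptic vesicle, which was lower at day 14 (-0.20 ± 0.05 SE, adjusted p = 0.0313). At days 7 and 30, 0 of these 12 were called by edgeR or DESeq2, with 1 and 0 at an unadjusted p under 0.05, and at day 14 DESeq2 called 5.

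Of 8 microglia markers, 8 were higher at day 7, 7 at day 14 and 6 at day 30. At day 14 C1qa was up by log2 1.15 ± 0.08 and Aif1 by 1.40 ± 0.15 (SE, adjusted p = 1.4e-10 and 3.78e-07). The 7 astrocyte, 7 oligodendrocyte, 6 endothelial and mural, 6 choroid plexus and 7 Schwann cell and cerebellum markers had 0 calls on each day by edgeR. DESeq2 called 3 choroid plexus markers at day 7 and 1 astrocyte marker at day 14. All 6 choroid plexus markers had an unadjusted p under 0.05 at day 7, and their summed level was 63.6, 50.9 and 4600 CPM in the lesion pons, against 30.4, 30.5 and 61.4 CPM in the contralateral pons. Among these day 7 libraries lesion replicate 3 alone stood apart, and it was also the highest of the 3 in Prph. Without it the day 7 difference of Prph from day 0 was 0.62 (adjusted p = 0.0493) and that from the contralateral pons 0.48 (adjusted p = 0.489). At day 14 the choroid plexus sums were 105, 388 and 27.3 CPM in the lesion pons, against 128, 67.0 and 954 CPM in the contralateral pons. Day 14 lesion replicate 2, with 388 CPM, was also the highest of its group in Prph. Without that library the day 14 call of Prph was lost (log2 0.67, adjusted p = 0.132). It was also lost without lesion replicate 3, with 27.3 CPM of choroid plexus markers (adjusted p = 0.0515). That library had 160 CPM of Prph, against 127 CPM in lesion replicate 1, with 105 CPM of these markers. Contralateral replicate 3, with 954 CPM of them, had 88.4 CPM of Prph, within the 85.1 to 97.5 CPM of its group. The part of choroid plexus tissue in Prph was not tested. Across the other of these lists and days at most 1 marker had an unadjusted p under 0.05. No marker of any list was at 0 in all 21 libraries, and whether any was at 0 throughout a single group was not examined. The oligodendrocyte sum, a measure of white matter, overlapped between the sides on every day.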

How the data were processed

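The authors deposited raw read counts per gene symbol for 21 libraries and a matrix of log2 CPM. Per the labels, the library kit selects mRNA and keeps its strand. Per the submitters' processing notes, tools were CASAVA 1.8.2, Subread, featureCounts and limma on GRCm38.p4; other settings are not given in the sources used here. The study's filter was applied to the deposited counts: a summed count above 0 (32815 genes), then above the 32nd percentile of summed counts, 29, which left 22294 genes. The deposited log2 values of 22269 matched genes differed from recomputed ones by at most 5e-11.

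All comparisons came from edgeR 4.0.16 (R 4.3.3). Counts were scaled by TMM, a single model held the 21 libraries with 1 coefficient for each of 7 groups, and the quasi-likelihood F-test (robust, two-sided) was adjusted by Benjamini-Hochberg over all 22294 genes, with calls at an adjusted p under 0.05. SEs are from the same test. An exact test of 3 against 3 libraries cannot go below p = 0.1. The test was checked on simulated data. Labels do not say that replicates are separate animals, so p-values measure the spread between these libraries, which may be technical. No 2 libraries were identical.

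Alternatives were limma 3.58.1 (voom, and on the deposited log2 matrix), DESeq2 1.42.0, other scalings and filters, fewer groups in the fit, a replicate block, a threshold of log2 1.7 and leaving out each library. The other lengths of Nefl and Nefm were added after seeing the data. Same-numbered lesion and contralateral libraries correlated at over 0.1 in each of 3 pairs at days 7 and 30, but not at day 14. This pairing comes from the data and not from the labels, and the main test did not use it. Gene positions are from GENCODE M21 on GRCm38, and promoters from RefSeq. Genes were named by a rule: the 5 filament genes, up to 3 genes of each list with the smallest adjusted p at day 14, the 5 genes most correlated with each filament gene, and 2 lesion markers. Some genes that this rule names are not reported here. The filament genes and all lists were chosen with earlier results of these data known.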

Additional observations from a re-analysis of the deposited data

How the results depend on the processing

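The mean difference of Nefl over the 3 days kept its sign and its call in 27 of 27 alternatives, and that of Prph in 26 of 27. The main counts of filament genes called, lesion against contralateral, were 1, 2, 0 and 2 at day 7, day 14, day 30 and for the mean. At day 7 the count was 0 with no filter beyond a count above 0, in limma on the deposited log2 matrix and with only the groups compared in the fit, 2 by DESeq2, and 0 to 1 with a library left out. At day 14 it was 1 with library totals in place of TMM, with the deposited matrix and with only the groups compared, and 0 to 1 with a library left out. At day 30 it was 1 with at least 1 CPM in 3 libraries, by DESeq2, by limma-voom and with only the groups compared, and for the mean it was 4 by DESeq2 and 2 to 3 with a library left out. With log2 of at least 1.7 required, 0 were called in any comparison. Against day 0 (main counts 1, 1 and 0 in lesion, 1 each day in contralateral pons), the lesion count was 2 by DESeq2 at days 7 and 14, 2 with at least 1 CPM in 3 libraries at day 14, 1 to 2 at day 14 with a library left out, and 1 at day 30 with only the groups compared. The contralateral count at day 30 was 2 with library totals. For the lesion effect at day 30 against day 14 it was 1 by DESeq2 and 0 to 1 with a library left out.

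Differences near 0 changed sign. With a library left out, Nefh, lesion minus contralateral, lay between -0.12 and 0.080 at day 14 and between -0.10 and 0.047 at day 30, and Prph at day 30 between -0.19 and 0.14. Against day 0, with a library left out, lesion Nefl at day 14 lay between -0.012 and 0.055, contralateral Prph at day 14 between -0.079 and 0.018, lesion Ina at day 30 between -0.031 and 0.0022 and contralateral Ina at day 7 between -0.027 and 0.013. Lesion Ina at day 30 was 0.00040 with DESeq2 size factors, 0.00041 by DESeq2 and 0.010 with at least 1 CPM in 3 libraries. Contralateral Ina at day 7 was 0.0075 with DESeq2 size factors and by DESeq2, 0.0068 with at least 1 CPM in 3 libraries and 0.012 with only the groups compared. The cause of these shifts was not tested.

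In the labels a lesion and a contralateral library of each day share a replicate number. Same-numbered libraries were correlated across genes with group means removed. The values were 0.167 to 0.273 at day 7, -0.00345 to 0.269 at day 14 and 0.194 to 0.215 at day 30. The numbers thus looked like pairs at days 7 and 30 but not at day 14. The main test used no pairs, and the replicate block paired equal numbers on all 3 days. Each day 7 and day 30 library correlated best with its own number, as a hint from the data, not the design. With a replicate block the filament genes called at day 30 numbered 1 (Nefl, adjusted p = 0.0183), the mean of Prph had adjusted p = 0.0569 and that of Ina 0.0466, and 1898 genes in place of 866 were called at day 14.

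Counts over all genes moved most for day 14 and for differences between days. At day 14 they were 478 with the deposited matrix, 435 with only the groups compared and 432 to 1983 with a library left out, highest without lesion replicate 1. At day 30, against 259, they were 569 with only the groups compared and 158 to 218 with a library left out. Lesion against day 0 at day 14 gave 1817 with only the groups compared, against 3749. Contralateral against day 0 at day 14 gave 2246 without day 0 replicate 2 and 2317 without contralateral replicate 2, against 3527. Day 14 against day 7 (0 genes) gave 2 with no filter, 1 by DESeq2, 1 with the replicate block and 0 to 1 with a library left out. Day 30 against day 7 (6 genes) gave 32 with no filter, 29 by DESeq2, 19 with the block, 20 with only the groups compared and 2 to 7 with a library left out. Day 30 against day 14 (18 genes) gave 331, 200, 745 and 92 under the same settings in that order, 4 with the deposited matrix and 5 to 938 with a library left out. With log2 of at least 1.7 the counts were 68, 102, 65 and 115 for lesion against contralateral at days 7, 14, 30 and for the mean, 178, 224 and 275 for lesion and 75, 98 and 100 for contralateral against day 0, and 0, 0 and 1 between days.

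The 5 genes have at least 1639 counts in every library, and 1 library decides several daily calls. The part of sequencing depth in these comparisons was not tested. Shares of the 5 genes were not compared between genes in raw counts, since 31 of 35 group shares moved by more than 1 SD when divided by length.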
